A study of Mus musculus with 8 samples.

Results

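Retinoic acid (RA) signalling was described here through 9 genes that make RA, bind it inside the cell or carry its message into the nucleus. They were chosen by name: *Aldh1a2*, *Dhrs3*, *Crabp1*, *Crabp2*, *Rara*, *Rarb*, *Rarg*, *Rxra* and *Rxrb*. All 9 were among the 14608 genes of the deposited expression table. The RNA came from the outflow tract (OFT), the vessel-like end of the embryonic heart that is later divided into the aorta and the pulmonary artery, of mouse embryos at embryonic day 11.5. There were 4 libraries labelled Control and 4 labelled Mib1V943F/+ Gata6STOP/+. The second genotype carries 1 copy of *Mib1* V943F, a missense allele of the ubiquitin ligase that activates Notch ligands and described by the study as dominant negative, together with 1 null copy of *Gata6*, a zinc-finger transcription factor. The alleles lie in trans and were carried in every cell. What the control embryos carried is given only as Control, and single heterozygotes are not analysed here, so the effects of the alleles cannot be told apart. The labels describe pools of 3 individuals, whereas the methods describe 3 pools of 4 pairs of tracts per genotype, and it is not stated which embryos went into which library. The p-values therefore measure the spread between these libraries.

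RA is made from vitamin A. Retinol is oxidised to retinaldehyde, which ALDH1A2, the main embryonic enzyme of the last step, turns into RA, while DHRS3 reduces retinaldehyde back to retinol and so limits the supply. CRABP1 and CRABP2 carry RA in the cytoplasm, and CRABP2 can hand it to the receptors, which are heterodimers of an RA receptor (RARα, RARβ or RARγ) and a retinoid X receptor (RXR) on direct repeats in DNA. In the heart, RA comes largely from the epicardium and the posterior mesoderm, it sets the posterior limit of the second heart field, the progenitor pool that builds the outflow tract, and embryos that lack RAR or RXR receptors have defects of outflow tract septation.

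The promoters of 2 members are shown because they differ in the sequence that RA receptors bind. RefSeq windows of GRCm38.p6 ran from 250 bases before to 50 bases after each annotated start. There were 16 windows for 8 of the 9 members, and *Crabp2* was not in that table. The 1 window of *Rarb* lies at a start inside the annotated gene. The 250 bases before the start are printed 5′ to 3′ on the gene's strand, at chr14:16575477-16575726 (minus strand) for *Rarb* and chr9:71215539-71215788 (plus strand) for *Aldh1a2*, with capitals for a direct repeat of RA receptor type.
Rarb: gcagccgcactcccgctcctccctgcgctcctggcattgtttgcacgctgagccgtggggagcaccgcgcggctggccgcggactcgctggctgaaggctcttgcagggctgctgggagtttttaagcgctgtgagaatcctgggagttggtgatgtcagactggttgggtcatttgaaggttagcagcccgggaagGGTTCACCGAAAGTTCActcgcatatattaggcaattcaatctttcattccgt
Aldh1a2: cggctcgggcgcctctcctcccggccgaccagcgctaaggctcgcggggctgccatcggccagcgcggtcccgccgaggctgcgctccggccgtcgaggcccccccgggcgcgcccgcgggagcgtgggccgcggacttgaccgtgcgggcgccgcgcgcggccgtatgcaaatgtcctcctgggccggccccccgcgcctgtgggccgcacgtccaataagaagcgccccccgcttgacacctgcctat

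The search took the unit AGGTCA, with A or G allowed at base 1 and G or T at base 3, and looked for 2 such units in the same direction, on either strand, separated by 1, 2 or 5 bases. The *Rarb* promoter held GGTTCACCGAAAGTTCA, spaced by 5 bases, starting 53 bases before the start, and none of the other 15 windows held a repeat of these letters. Of all 32851 windows of 300 bases, 0.0974% held a repeat spaced by 5 bases, 0.268% by 2 bases and 0.222% by 1 base. A GATA sequence (GATA after A or T and before A or G, on either strand) was in 1 member window, of *Rarg*, and in 29.8% of all windows. On either strand, TGGGAA, the core letters of the site for RBPJ, the DNA-binding partner of Notch, was in 5 member windows, of *Dhrs3*, *Rara* and *Rxra*, where the 2 windows of *Dhrs3* overlap and so do the 2 of *Rara*, and in 25.6% of all windows. These are matches of letters only.

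Reads on the listed genes ranged from 10669420 in control-labelled replicate 2 to 30469165, and the deposited values are CPM, reads per gene relative to the library's total, scaled by the authors. *Gata6* RNA lay at 236 to 279 CPM in control-labelled and 213 to 284 CPM in mutant-labelled libraries (log2 fold change −0.08, limma adjusted p = 0.752), so it did not separate the groups, and every direction below rests on the labels. *Mib1* RNA, which a missense allele need not alter, lay at 107 to 138 and 123 to 137 CPM. Of 7 cardiomyocyte markers, 6 endocardial, 6 cushion and 5 smooth muscle markers, all were listed and none was at 0 in any library. The erythroid and macrophage markers examined were never at 0 either, so this does not single out the labelled tissue. Mutant-labelled replicate 2 stood apart: it was the highest of the 8 libraries for 27.3% of all genes, against 11.2% for mutant-labelled replicate 1.

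The comparison asks which RNAs of the tract differ between embryos with both mutant alleles and controls, and no member passed that test. The largest difference was that of *Crabp2*, at 4.59 ± 1.11 CPM in control-labelled and 7.71 ± 2.34 CPM in mutant-labelled libraries (SD, n = 4 each), which is 0.67 (SE 0.21) as a log2 fold change, with a limma adjusted p of 0.276. *Aldh1a2*, *Dhrs3* and *Rarb* were each highest in mutant-labelled replicate 2, and *Rara* and *Rxra* were lowest there. By limma, 0 of 9 members and 0 of 14608 genes (0%) had an adjusted p under 0.05. At an unadjusted p under 0.05 there was 1 member of 9, *Crabp2*, beside 12.1% of all genes. The edgeR likelihood ratio test called 0 members and 0.732% of all genes, DESeq2 0 members and 1.54% of the genes to which it gave an adjusted p, and the edgeR quasi-likelihood test 0 members and 0 genes. For all 9 members the groups overlapped, whereas they did not for 7.1% of all genes. The mutant-labelled mean log2 value was higher for 6 members and lower for 3, with a median log2 fold change of 0.13 beside 0.00 over all genes, and without mutant-labelled replicate 2 that median was −0.03.

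**Figure D1:**
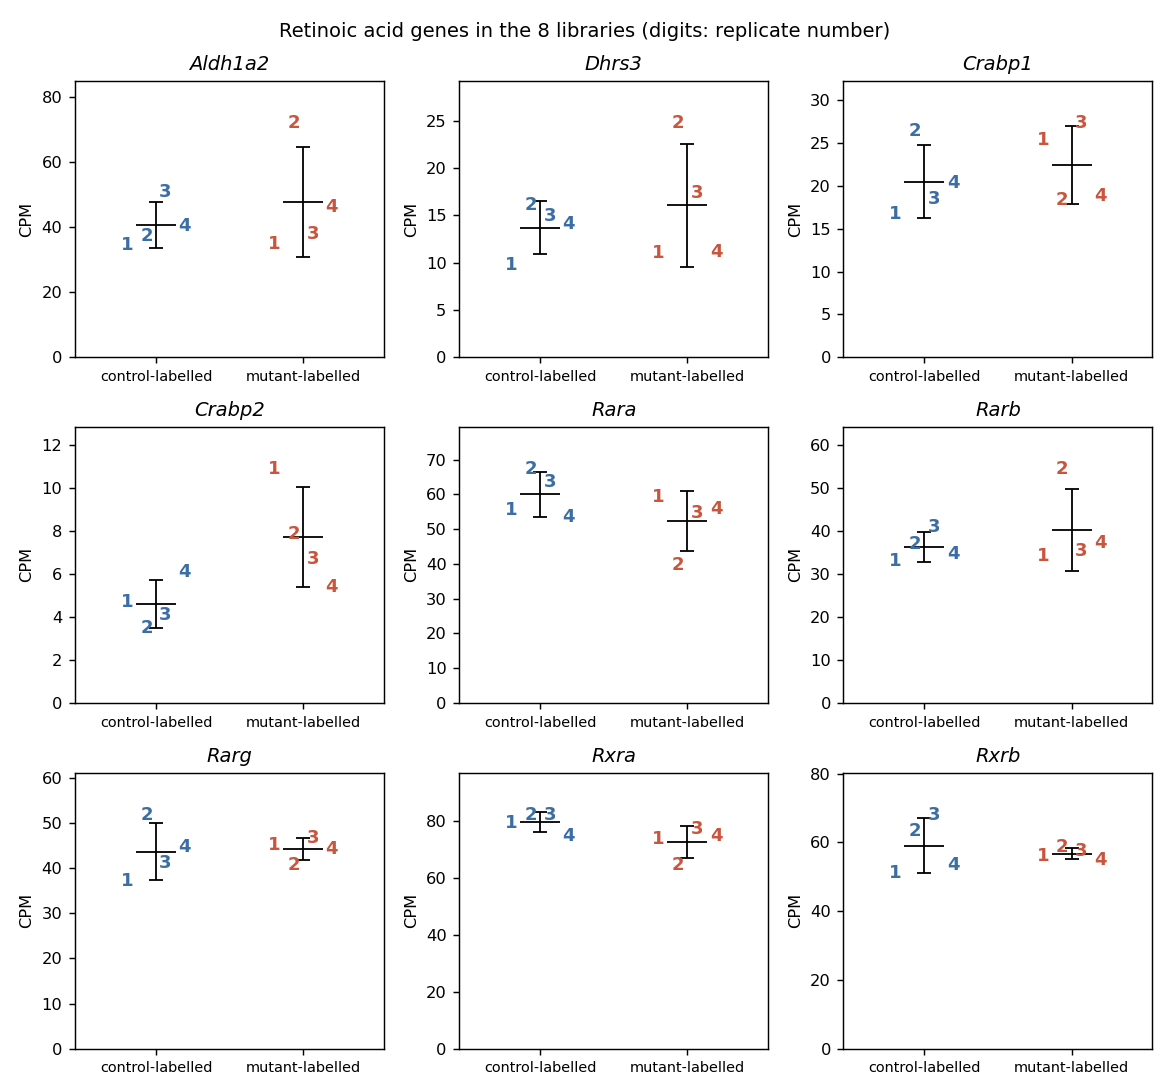
CPM of the 9 genes in each of the 8 libraries, drawn as its replicate number, with the mean and SD of each labelled group as a line and bars (n = 4 each). The groups overlap in every panel, and mutant-labelled replicate 2 is the highest library for *Aldh1a2*, *Dhrs3* and *Rarb*.

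*Aldh1a2* (ENSMUSG00000013584, GRCm38 chromosome 9, 71215789 to 71296243, plus strand) encodes the enzyme that makes RA in the embryo. It read 34.5, 37.4, 50.8 and 40.2 CPM in control-labelled replicates 1 to 4 and 34.9, 72.0, 37.8 and 46.3 CPM in mutant-labelled replicates 1 to 4. Replicate 2 of the mutant-labelled group was well above the other 7 libraries, which lay between 34.5 and 50.8 CPM without regard to group. The log2 fold change was 0.18 (SE 0.19, 95% interval −0.24 to 0.60, limma adjusted p = 0.707, exact two-sided permutation p = 0.60 over 70 relabellings), and −0.03 without mutant-labelled replicate 2.

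*Dhrs3* (ENSMUSG00000066026, chromosome 4, 144892827 to 144928209, plus strand) encodes the reductase that returns retinaldehyde to retinol, and RA is known to raise its expression. Control-labelled values were 9.69, 16.1, 14.9 and 14.1 CPM, and mutant-labelled values 11.02, 24.7, 17.3 and 11.08 CPM. The highest and 2 of the 3 lowest libraries were thus mutant-labelled. The log2 fold change of 0.16 (SE 0.24, 95% interval −0.35 to 0.68, limma adjusted p = 0.789) became −0.07 without mutant-labelled replicate 2.

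The epicardium is a known site of *Aldh1a2* expression, and its markers were read beside these values. All 8 epicardial and mesothelial markers examined were listed, and 6 of the 8 were highest in mutant-labelled replicate 2. There the transcription factor genes *Wt1* and *Tbx18* reached 52.4 and 104 CPM, against 32.1 to 38.8 and 55.5 to 81.2 CPM in the other 7 libraries. *Msln* and *Krt19* did not peak there. They read 3.79 and 57.7 CPM in that library, and were highest in control-labelled replicates 3 and 2, at 5.73 and 64.2 CPM. The summed level of the 8 markers was 382 to 494 CPM in control-labelled libraries, and 365, 601, 438 and 428 CPM in mutant-labelled replicates 1 to 4. As a share of that sum, *Aldh1a2* was 9.03%, 8.64%, 10.3% and 9.55% in control-labelled and 9.54%, 11.99%, 8.63% and 10.8% in mutant-labelled libraries, so its highest-to-lowest ratio over the libraries was 1.39 where that of its CPM was 2.09. For *Dhrs3* the highest-to-lowest ratio was 1.62 against 2.55. Dividing by the same sum widened the range of the binding-protein genes, from 1.64 to 2.26 for *Crabp1* and from 3.10 to 3.67 for *Crabp2*. No other list was used as the divisor. The sum was itself highest in mutant-labelled replicate 2, so dividing by it tends to narrow the range of any gene that peaks in that library. Other lists peaked in that library as well: 4 of 5 erythroid and 3 of 5 macrophage markers were also highest there, with summed levels of 3803 CPM, against 895 to 2605 CPM in the other 7 libraries, and 56.1 CPM, against 36.6 to 46.0 CPM. *Postn*, a matrix gene, stood at 1172 CPM there, against 515 to 747 CPM elsewhere, but was the only 1 of 6 cushion markers highest there. *Sox9* and *Col2a1* of the cushion list were lowest in that library, at 77.7 and 321 CPM. In bulk RNA, more or fewer cells of a type and more or less RNA per cell cannot be told apart, and the part of these markers in the values was not tested.

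**Figure D2:**
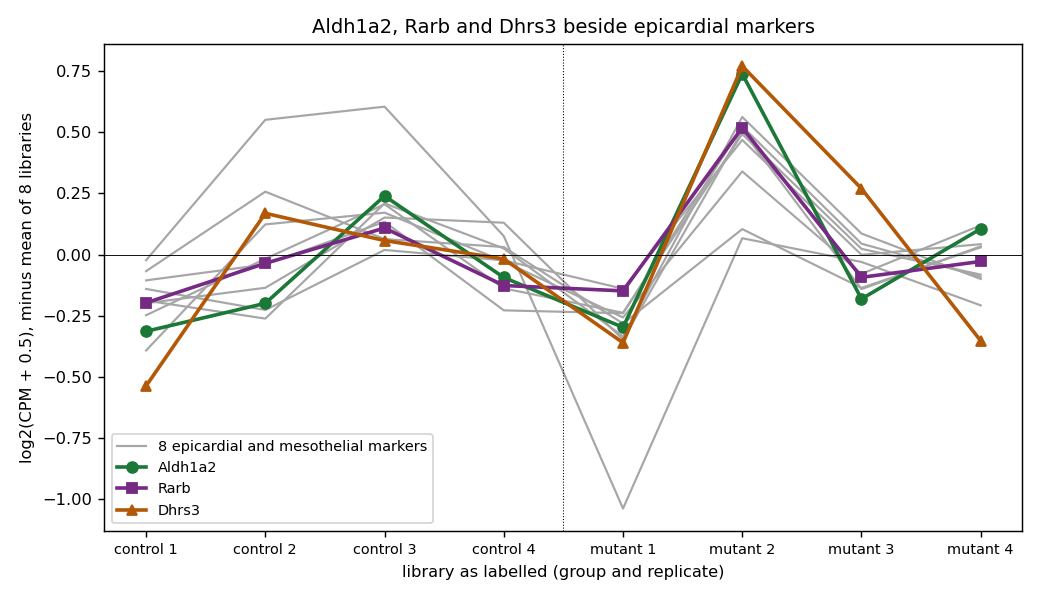
Log2 level of each gene relative to its own mean, by library, for *Aldh1a2*, *Rarb* and *Dhrs3* (coloured) and the 8 epicardial and mesothelial markers (grey), where lines only join the points of a gene. The 3 genes and 6 of the 8 markers are highest in mutant-labelled replicate 2.

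*Crabp1* (ENSMUSG00000032291, chromosome 9, 54764748 to 54773110, plus strand) encodes the binding protein that directs RA towards breakdown. It read 16.7, 26.5, 18.5 and 20.4 CPM in control-labelled and 25.3, 18.4, 27.3 and 18.8 CPM in mutant-labelled libraries. High and low libraries occurred in both groups. Its log2 fold change was 0.13 (SE 0.16, 95% interval −0.22 to 0.47, limma adjusted p = 0.751), and it ran from 0.03, without mutant-labelled replicate 3, to 0.25, without control-labelled replicate 2.

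*Crabp2* (ENSMUSG00000004885, chromosome 3, 87948666 to 87953376, plus strand) encodes the binding protein that passes RA to the receptors and is itself induced by RA. The control-labelled libraries read 4.68, 3.51, 4.07 and 6.09 CPM and the mutant-labelled ones 10.9, 7.87, 6.70 and 5.41 CPM. Mutant-labelled replicates 1, 2 and 3 were above every control-labelled library, and replicate 4 was below control-labelled replicate 4. The difference of the mean log2(CPM + 0.5) values corresponded to 1.59-fold (95% interval 1.17 to 2.17), with a limma unadjusted p of 0.00657. The exact two-sided permutation p was 0.0571, where 0.0286 is the smallest that 4 against 4 libraries can give. The adjusted p was 0.276 by limma, 0.293 by the edgeR quasi-likelihood test, 0.134 by the edgeR likelihood ratio test and 0.0901 by DESeq2. Leaving out each library in turn gave log2 fold changes from 0.50, without mutant-labelled replicate 1, to 0.82, without mutant-labelled replicate 4. *Crabp2* was the member with the fewest reads, from 37 to 233 per library, which at 37 reads gives a counting error of 16.4%, so the difference was wider than counting error but was not separated from the spread between libraries after adjustment.

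Marker values of cell types that could bear on *Crabp2* were taken beside it. The summed level of 6 listed markers of the second heart field and pharyngeal mesoderm, of 8 examined, was 70.03 to 92.4 CPM in control-labelled and 104 to 114 CPM in mutant-labelled libraries. *Isl1*, the defining transcription factor of that field, was highest in mutant-labelled replicate 1 at 59.2 CPM, against 25.7 to 43.4 CPM in the other 7 libraries, and *Crabp2* was highest in the same library. The 7 cardiomyocyte markers summed to between 17772 and 20621 CPM in control-labelled and between 13800 and 16787 CPM in mutant-labelled libraries. Neural crest, glial and neuronal markers (5 of 7 listed) summed to 47.7 to 54.7 and 53.3 to 63.4 CPM. Of 8 markers of pharyngeal endoderm and epithelium only 2 were in the table, and *Epcam* and *Cdh1* were not analysed here. The part of these markers in the *Crabp2* values was not tested.

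**Figure D3:**
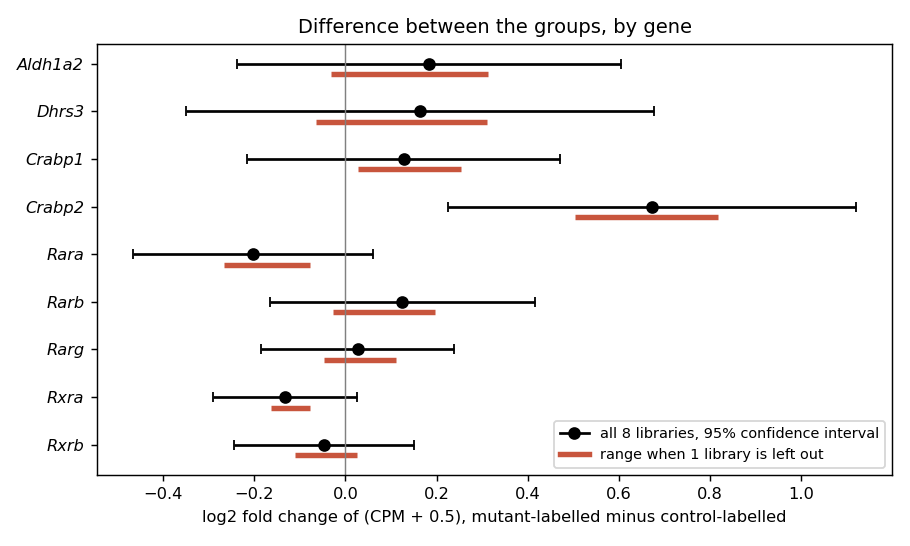
Log2 fold change of each gene, mutant-labelled over control-labelled, with its 95% interval from limma (black), and the range of the values when each library is left out in turn (red). The interval of *Crabp2*, 0.23 to 1.12, is the only one above 0, and leaving out mutant-labelled replicate 2 moves *Aldh1a2*, *Dhrs3* and *Rarb* across 0.

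*Rara* (ENSMUSG00000037992, chromosome 11, 98927818 to 98974942, plus strand) encodes the RA receptor with the broadest expression in the embryo. It read 55.5, 67.3, 63.7 and 53.4 CPM in control-labelled and 59.3, 39.8, 54.7 and 55.9 CPM in mutant-labelled libraries. Only mutant-labelled replicate 2 fell outside the control-labelled range. Its log2 fold change was −0.20 (SE 0.12, 95% interval −0.47 to 0.06, limma adjusted p = 0.506), and −0.08 without that library.

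*Rarb* (ENSMUSG00000017491, chromosome 14, 16430839 to 16819156, minus strand) is the receptor gene best known as a direct target of RA. It carries the repeat printed above before a start that lies inside the annotated gene. Its CPM do not separate reads by start. Its values were 32.9, 36.9, 40.8 and 34.6 CPM in control-labelled and 34.1, 54.4, 35.4 and 37.1 CPM in mutant-labelled libraries. Apart from mutant-labelled replicate 2, every library lay between 32.9 and 40.8 CPM. The log2 fold change of 0.13 (SE 0.13, 95% interval −0.17 to 0.42, limma adjusted p = 0.712) became −0.03 without that replicate. As a share of the summed epicardial markers *Rarb* was 8.21% to 8.62% in control-labelled and 8.08% to 9.32% in mutant-labelled libraries, a highest-to-lowest ratio of 1.15 where its CPM gave 1.65, and it was 9.06% in mutant-labelled replicate 2. The epicardial sum was itself highest in that replicate, so some narrowing comes with the division. The part of the epicardial, erythroid and macrophage markers in the *Rarb* values was not tested. The *Rarb* exons share 1793 bases with the opposite-strand gene *Top2b*, a DNA topoisomerase at 195 to 304 CPM, which was highest in the same library. The libraries keep strand, but the strand setting of the counting is not given in the sources used here, so reads from the shared bases cannot be assigned with certainty.

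*Rarg* (ENSMUSG00000001288, chromosome 15, 102234938 to 102257517, minus strand) encodes RARγ, which is prominent in mesenchyme and cartilage precursors. It lay at 37.1, 51.8, 41.1 and 44.6 CPM in control-labelled and 45.1, 40.7, 46.6 and 44.2 CPM in mutant-labelled libraries. The 4 mutant-labelled values all fell within the control-labelled range. The log2 fold change was 0.03 (SE 0.10, 95% interval −0.19 to 0.24, limma adjusted p = 0.921), and −0.05 without control-labelled replicate 1.

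The RXR genes, whose products pair with the RA receptors and with other nuclear receptors, varied least between libraries. *Rxra* (ENSMUSG00000015846, chromosome 2, 27676440 to 27762957, plus strand) read 79.2, 82.1, 82.2 and 74.6 CPM in control-labelled and 73.7, 64.7, 77.3 and 74.8 CPM in mutant-labelled libraries. Mutant-labelled replicates 1 and 2 were below every control-labelled library. Its log2 fold change was −0.13 (SE 0.07, 95% interval −0.29 to 0.02, limma adjusted p = 0.467, exact permutation p = 0.0857). *Rxrb* (ENSMUSG00000039656, chromosome 17, 34031812 to 34038399, plus strand) read 51.1, 63.3, 68.0 and 53.5 CPM, then 55.9, 58.5, 57.6 and 54.8 CPM. The mutant-labelled values lay within the control-labelled range, with a log2 fold change of −0.05 (SE 0.09, 95% interval −0.24 to 0.15, limma adjusted p = 0.849) that was 0.02 without control-labelled replicate 3 and 0.09 after correction for GC content. *Rxrb* had the highest transcript GC content of the 9 genes, at 61.4%. The same correction moved *Rara* to −0.09, *Rxra* to −0.05, *Rarg* to 0.13 and *Crabp1* to 0.22.

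To compare levels between genes, CPM was divided by the length of the longest annotated transcript in kilobases. In control-labelled libraries *Crabp1* came first at 25.6 ± 5.29 CPM per kb, then *Rxrb* at 22.4 ± 3.04, *Aldh1a2* at 18.0 ± 3.15, *Rara* at 17.7 ± 1.95 and *Rxra* at 16.2 ± 0.729. *Rarg* followed at 14.8 ± 2.11 CPM per kb, *Rarb* at 11.7 ± 1.10, *Dhrs3* at 5.86 ± 1.198 and *Crabp2* at 4.93 ± 1.19 (SD, n = 4). Neighbours in this order were closer than the larger of their SDs, except *Rxrb* with *Aldh1a2*, *Rarg* with *Rarb*, and *Rarb* with *Dhrs3*. In mutant-labelled libraries *Crabp2* was at 8.29 ± 2.51 and *Dhrs3* at 6.86 ± 2.78 CPM per kb. The order depends on the length used: with all annotated exons merged, *Rxrb* stood at 14.8 CPM per kb, below *Aldh1a2* at 18.0.

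On this per-length scale the make-up of the RA receptors was alike in 7 libraries and not in the eighth. *Rara* gave 37.3% to 41.5% of the summed RA receptor level in the other 7 libraries and 27.3% in mutant-labelled replicate 2. *Rarb* gave 24.1% to 28.6% in those 7 and 40.7% in that replicate. *Rarg* lay between 30.3% and 35.9% in control-labelled and 32.0% and 36.4% in mutant-labelled libraries. Of the RXR level, *Rxra* gave 39.3% to 45.4% in control-labelled and 37.2% to 42.2% in mutant-labelled libraries, and *Rxrb* the rest. That split depends on the length used. With all annotated exons merged, *Rxra* gave 46.8% to 53.0% in control-labelled and 44.6% to 49.8% in mutant-labelled libraries. *Rxrg* was not among the 9 genes.

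**Figure D4:**
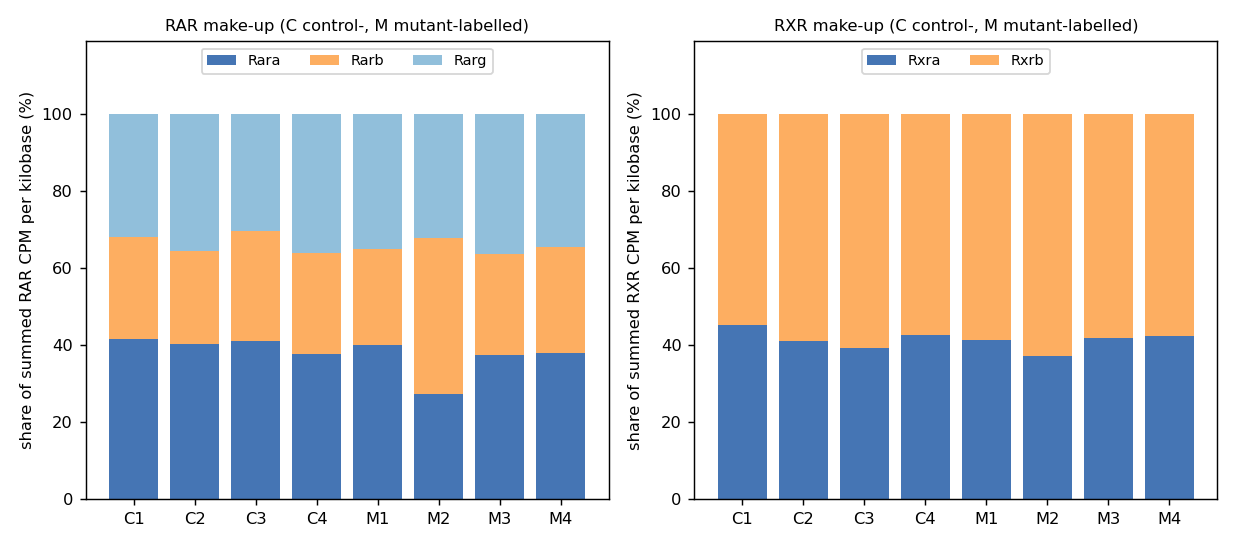
Stacked bars of the share of each gene in the summed RA receptor level (left) and RXR level (right), in percent of CPM per kb of longest transcript, for each of the 8 libraries (C control-labelled, M mutant-labelled). *Rarb* reaches 40.7% in mutant-labelled replicate 2 and is at most 28.6% elsewhere.

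The 9 genes varied over the 8 libraries to different degrees, with coefficients of variation of 38.7% for *Crabp2*, 32.3% for *Dhrs3* and 28.4% for *Aldh1a2*, against 7.45% for *Rxra* and 9.48% for *Rxrb*. Likeness between genes was measured as the root mean square difference of their centred log2 values over the 8 libraries, where a smaller number is more alike. Of the 36 pairs of members, *Rara* and *Rxra* were closest at 0.123, *Rxra* and *Rxrb* next at 0.133 and *Aldh1a2* and *Rarb* after them at 0.139, whereas *Crabp2* and *Rara* were farthest apart at 0.592. Among the 11651 genes that averaged 5 CPM or more, the nearest to *Crabp2* were *Map2* (0.169), *Eya4* (0.179) and *Ddr2* (0.180), where a flat gene would stand at 0.456. Nearest to *Dhrs3* were *Nt5e* (0.112), *Sntg2* (0.131) and *Neat1* (0.157), and nearest to *Aldh1a2* were *Stom* (0.0976), *Fgf2* (0.104) and *Dnah7b* (0.110). These likenesses describe 8 libraries that share 1 library standing apart, and no test was made of them.

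The wider retinoid pathway was taken as a list of 54 genes by role, of which 37 were in the table. At an unadjusted limma p under 0.05, 6 of the 37 were higher in mutant-labelled libraries, beside 5.45% of all genes, and 1 was lower, beside 6.62%. None passed after adjustment in limma, edgeR or DESeq2. The counts moved with single libraries. There were 3 higher and 4 lower without mutant-labelled replicate 3, and 3 higher and 1 lower without control-labelled replicate 1. Of all genes, 10.7% and 11.8% then passed at that level in either direction, against 12.1% with every library. The median log2 fold change of the list was 0.01 beside 0.00 over all genes. By role, 1 of 9 listed genes of synthesis and storage, 1 of 4 of transport and uptake, the 1 listed degradation gene, 2 of 9 nuclear receptors and partners and 1 of 14 coactivators and corepressors were among the higher genes.

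*Cyp26b1*, the listed member of the family of enzymes that degrade RA, read 27.8, 25.2, 31.5 and 34.8 CPM in control-labelled and 30.5, 48.3, 39.8 and 43.6 CPM in mutant-labelled libraries. Mutant-labelled replicates 2 to 4 were above every control-labelled library. This gave a log2 fold change of 0.43 (SE 0.14, limma unadjusted p = 0.0089, adjusted p = 0.298). *Rdh10*, which makes retinaldehyde from retinol, read 8.25, 5.88, 8.87 and 9.90 CPM and then 14.9, 10.96, 9.36 and 9.02 CPM, with a log2 fold change of 0.40 (SE 0.18, limma adjusted p = 0.404) that was 0.25 without mutant-labelled replicate 1 and 0.26 without control-labelled replicate 2. *Cyp26a1*, *Cyp26c1* and *Aldh1a3* were not in the table and are not analysed here.

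*Aldh1a1*, a second RA-making enzyme, lay at 7.20 to 7.87 CPM in control-labelled and 7.89 to 10.01 CPM in mutant-labelled libraries. Those ranges did not overlap, as for 3.2% of all genes in that direction. The log2 fold change was only 0.16 (SE 0.11, limma adjusted p = 0.558), and 0.09 without mutant-labelled replicate 2. *Stra6*, the membrane receptor that takes up retinol, was at 0.968 to 3.58 CPM except for 7.28 CPM in mutant-labelled replicate 1 and 0.809 CPM in mutant-labelled replicate 2. *Rxrg*, the remaining RXR gene, was near the floor of the table at 1.13 to 1.71 and 1.58 to 2.99 CPM.

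Orphan and other nuclear receptors gave values in both directions. *Nr2f1*, which encodes the RA-inducible receptor COUP-TFI, read 16.9, 18.5, 17.2 and 18.9 CPM in control-labelled and 24.5, 21.7, 20.4 and 22.9 CPM in mutant-labelled libraries. The groups did not overlap, as for 3.2% of all genes in this direction. Its log2 fold change was 0.31 (SE 0.09, limma unadjusted p = 0.00338, adjusted p = 0.254, exact permutation p = 0.0286). Its relative *Nr2f2* lay at 15.6 to 17.6 and 12.7 to 19.1 CPM, with a log2 fold change of −0.13 that moved to −0.24 when mutant-labelled replicate 1 was left out and to −0.05 when replicate 2 of that group was. *Thra*, a thyroid hormone receptor that also pairs with RXR, lay at 100.7 to 123 CPM in control-labelled and 90.5 to 100.1 CPM in mutant-labelled libraries, without overlap, as for 3.9% of all genes in that direction (log2 fold change −0.23, SE 0.08, limma adjusted p = 0.315). After GC correction it was −0.11.

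Genes known to respond to RA were taken as a list of 37, of which 30 were in the table, *Crabp2*, *Dhrs3* and *Rarb* among them. The list was not split by whether RA raises or lowers a gene, so its counts give no direction of RA response. At an unadjusted p under 0.05, 8 of the 30 were higher and 2 lower in mutant-labelled libraries, beside the 5.45% and 6.62% of all genes given above, and none passed after adjustment (lowest limma adjusted p = 0.254). The mean was higher for 23 and lower for 7, with a median log2 fold change of 0.17. Mutant-labelled replicate 1 was the highest library for 16 of the 30 responsive genes, or 53.3%, against 11.2% of all genes. Without that library 7 of the 30 were higher, 3 lower and the median 0.17, beside 12.3% of all genes in either direction. Without control-labelled replicate 3, and likewise without mutant-labelled replicate 3, 5 were higher and 1 lower. The share of all genes in either direction was then 8.02% and 10.7%, against 12.1% with every library. Without control-labelled replicate 4, 11 were higher and 2 lower, beside 14.8% of all genes. Without mutant-labelled replicate 4, 10 were higher and 1 lower, beside 10.8%. The second heart field marker *Isl1* was highest in mutant-labelled replicate 1 too, as given above, and its part in these values was not tested.

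Hox genes, which place cells along the body axis and mark the posterior second heart field, were part of the responsive list. They accounted for 3 higher genes and 1 lower gene, beside 5.45% and 6.62% of all genes. Of 12 Hox genes examined 10 were listed, with a median log2 fold change of 0.37. Most of the 10, *Hoxa3* among them, were highest in mutant-labelled replicate 1. *Hoxa3* lay at 5.44 to 8.48 and 8.52 to 10.04 CPM, without overlap, as for 3.2% of all genes in that direction (log2 fold change 0.42, SE 0.13, limma adjusted p = 0.291). *Hoxd4* lay the other way, at 1.80 to 2.85 and 0.419 to 1.47 CPM (log2 fold change −0.81, SE 0.25, limma adjusted p = 0.284), from as few as 11 reads. *Tgm2*, a transglutaminase induced by RA in many cells, lay at 333 to 440 and 287 to 401 CPM (log2 fold change −0.25, limma adjusted p = 0.404, and −0.16 after GC correction). *Hoxb1* was not in the table and is not analysed here.

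**Figure D5:**
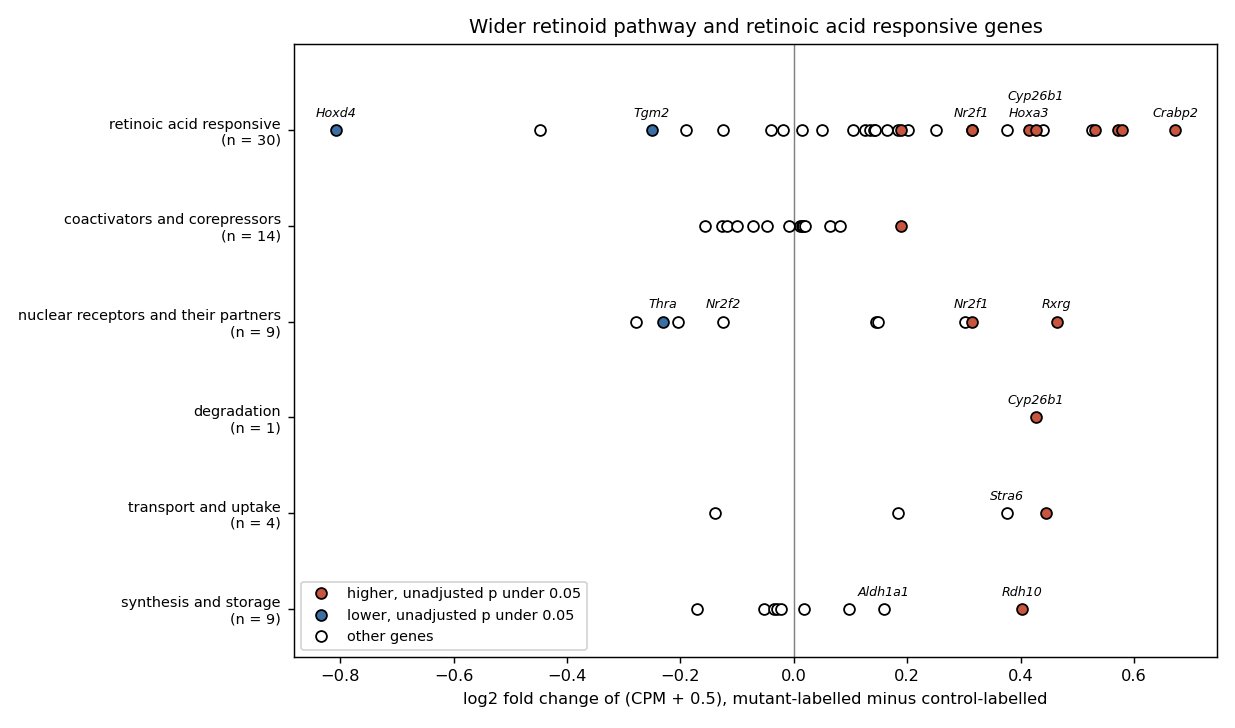
Log2 fold change of each listed gene, mutant-labelled over control-labelled, for the wider retinoid pathway by role and for the RA-responsive genes, with coloured points for an unadjusted limma p under 0.05 (red higher, blue lower) and n as the genes in each row. No point passes after adjustment, and the coloured points include 6 higher and 1 lower of 37 pathway genes and 8 higher and 2 lower of 30 responsive genes. Genes of both lists, *Cyp26b1* and *Nr2f1* among them, are drawn and counted in each.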

How the data were processed

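The study sequenced polyA RNA of embryonic day 11.5 mouse outflow tract with a directional kit and 60 bp single-end reads. Per the labels and methods, adapters were removed with cutadapt, reads were assigned to GRCm38 genes with RSEM, and edgeR normalized the result. The authors deposited CPM scaled by edgeR's TMM factors, 1 column per library (0 columns were left out). Every listed gene reached 1 CPM in 4 or more libraries, and genes below that are not analysed here.

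Each library's CPM values were whole multiples of the worth of 1 read for 100% of values (tolerance 0.01 reads), 0.0325 to 0.0948 CPM, which gave the reads and depths. Intervals from reads cover counting error only. The test was limma 3.58.1 with an intensity trend (R 4.3.3) on log2(CPM + 0.5) of all 14608 genes, two-sided, with p-values adjusted by Benjamini-Hochberg and called under 0.05. Fold changes are on that scale and understate those of low genes. The study's own test was not used as the main one because the deposited values are not counts. Single genes also had an exact two-sided permutation test of the 70 relabellings. Alternatives were pseudocounts of 0.1 and 2, a mean of at least 5 CPM, median-of-ratios and quantile scaling, edgeR 4.0.16 (likelihood ratio and quasi-likelihood) and DESeq2 1.42.0 on the recovered reads, a GC correction per library, the replicate number as a block, and each library left out. Scripts were tested on simulated data.

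Text names the 9 members, *Gata6*, *Mib1*, a set of pathway genes and up to 5 further list genes in each direction with the smallest unadjusted p, and, for the 3 most variable members, the 3 genes most like each. A few genes that this rule selects are not reported here. *Isl1*, *Wt1*, *Tbx18*, *Msln*, *Krt19*, *Postn*, *Sox9*, *Col2a1* and *Top2b* were chosen after their values were seen. The members and lists were chosen with earlier results of these data known.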

Additional observations from a re-analysis of the deposited data

Results flagged for a closer look

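*Rarb* was flagged in the mutant-labelled group because 1 library lay far from the other 3: replicate 2 at 54.4 CPM, with the nearest at 37.1 and the lowest at 34.1 CPM, a gap of 0.852 of the group's range. It was the only such value among 44 groups of 4 libraries examined, and chance marks about 1 group in 20.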

How the results depend on the processing

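Of 247 values recomputed under the alternatives, 238 kept their direction and side of the threshold, 7 changed direction and 2 counts moved by more than 1.5 times. The count of all genes past the adjusted threshold was 0 by limma and 107 by the edgeR likelihood ratio test and 194 by DESeq2; none was a member. Leaving out each library in turn, the log2 fold change ranged from −0.0327 to 0.31 for *Aldh1a2*, −0.0656 to 0.31 for *Dhrs3*, −0.0271 to 0.20 for *Rarb*, −0.0468 to 0.11 for *Rarg* and −0.11 to 0.0244 for *Rxrb*, the low ends of the first 3 without mutant-labelled replicate 2. *Rxrb* was 0.0862 under GC correction, with or without the replicate block. Same-numbered libraries of the 2 groups deviated with correlations of −0.185 to 0.0349, so the numbers do not pair them. With the replicate block 0 members passed, and *Crabp2* kept a log2 fold change of 0.67 (limma adjusted p = 0.455). At an unadjusted limma p under 0.05, 2 pathway genes were then higher and 1 lower, and 9 responsive genes higher and 2 lower. Of all genes, 8.93% passed at that level in either direction. After GC correction 3 pathway genes were higher and 2 lower, and 12 responsive genes higher and 1 lower, beside 11.1% of all genes in either direction. The causes were not tested. Among the 9 genes depth limited *Crabp2* most, at 37 reads in control-labelled replicate 2.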
